A study of Mus musculus with 16 samples.

Results

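Transcripts of 10 genes of monocytes and dendritic cells, Mpeg1, Ly86, Ctss, Ccr2, Cx3cr1, Klf4, Siglech, Batf3, F13a1 and Cd68, were read in 16 bulk RNA-seq libraries of multipotent progenitors (MPPs) from mouse bone marrow. The genes were taken as a fixed list of 10 names out of 47937 gene identifiers in the count tables, and each name matched a single identifier. MPP3 and MPP4 cells were sorted from C57BL/6 mice as Lin-Sca1+cKit+ (LSK) cells that were CD150-CD48+, with Flt3 also required for MPP4. Each population had 4 libraries labelled WT and 4 labelled KO, which gave 4 groups of 4 libraries. The authors describe the 4 of a group as biological replicates. The sample labels write the WT genotype as Ebf1fl/fl Tie2Cre+/+ and the KO genotype as Ebf1fl/fl Tie2Cre +/cre, so that by the labels both carry floxed Ebf1 alleles and differ in the Cre transgene. The description of the series instead gives WT mice unfloxed Ebf1 alleles together with Tie2Cre, so a role of the transgene and of the alleles cannot be told apart here. Cre under the Tie2 (Tek) promoter is active in endothelium and in blood stem cells, and thus acts before the MPP stage. WT mice were 11 or 12 weeks old and KO mice 9, 10 or 11 weeks old, with 2 libraries from females and 2 from males in each group.

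Monocytes and dendritic cells (DCs) descend from MPPs through progenitors that start to transcribe chemokine receptors, lysosomal enzymes and pattern receptors before the mature cells appear. MPP3 cells are biased toward myeloid cells and MPP4 cells, which carry the receptor Flt3, toward lymphoid cells, and Flt3 ligand also drives the formation of DCs. EBF1 is a transcription factor that specifies B cells. The comparison of the populations asks which of the 10 genes MPP3 and MPP4 cells already transcribe, and the comparison of genotypes asks whether their levels differ in mice labelled as lacking EBF1.

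The libraries held between 24823708 and 48703193 counts. A gene entered the edgeR fit if its mean count exceeded 100 in at least 1 group (11831 genes), and a gene was called at a Benjamini-Hochberg adjusted p (FDR) under 0.1. A call without a named tool is a call by edgeR. Levels are counts per 1000000 (CPM), scaled by the normalized library size. Of the 10 genes, 8 passed this filter, while Siglech and Batf3 did not and were tested in a second fit of all genes with at least 1 count. The sorting markers followed the gates, since Flt3 lay between 205 and 313 CPM in MPP3 and between 938 and 1362 CPM in MPP4, Kit was at 381 CPM or more in every library, and Slamf1, which encodes CD150, never exceeded 3.49 CPM. Among antigens of the depleted lineages, Ly6g had counts in only 2 of the MPP4 libraries, and Itgam, which encodes CD11b, lay between 3.04 and 11 CPM over all libraries. The whole-gene count of Ebf1 was 5 to 91 in MPP3 WT and 6 to 84 in MPP3 KO libraries, while WT libraries of MPP4 had 98 to 263 counts and KO libraries of MPP4 had 488 to 928. A count over the whole gene cannot tell a deleted from an intact allele, so it does not check the genotype labels, and WT and KO stand below for libraries so labelled.

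The 10 genes covered a wide span of levels. Per kilobase of exon, Ctss had the highest mean over the 16 libraries at 42.4 CPM per kb, followed by Cd68 at 24.9, F13a1 at 12.2 and Mpeg1 at 10.6 CPM per kb. The ranges of F13a1 (2.76 to 33.2 CPM per kb) and Mpeg1 (1.37 to 28.5 CPM per kb) over libraries overlapped almost fully, so that these neighbours in the order did not separate. The order pools both populations and differed within MPP3. The MPP3 WT means were 19 for Cd68 and 16.7 CPM per kb for Ctss. In MPP3 KO the means were 27.7 for F13a1, 27.5 for Cd68 and 23.1 CPM per kb for Ctss. Ly86, Ccr2, Cx3cr1 and Klf4 had means of 4.77, 2.33, 1.72 and 1 CPM per kb. Siglech was at 0.308 CPM per kb and Batf3 at 0.0896 CPM per kb. For Batf3 the raw counts reached 12 at most, and 5 of the 16 libraries had no count, against a limit of 3 counts, or 0.0619 to 0.118 CPM, that a count of 0 allows. In sorted bulk samples, fewer cells that express a gene and less RNA per cell cannot be told apart.

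**Figure D1:**
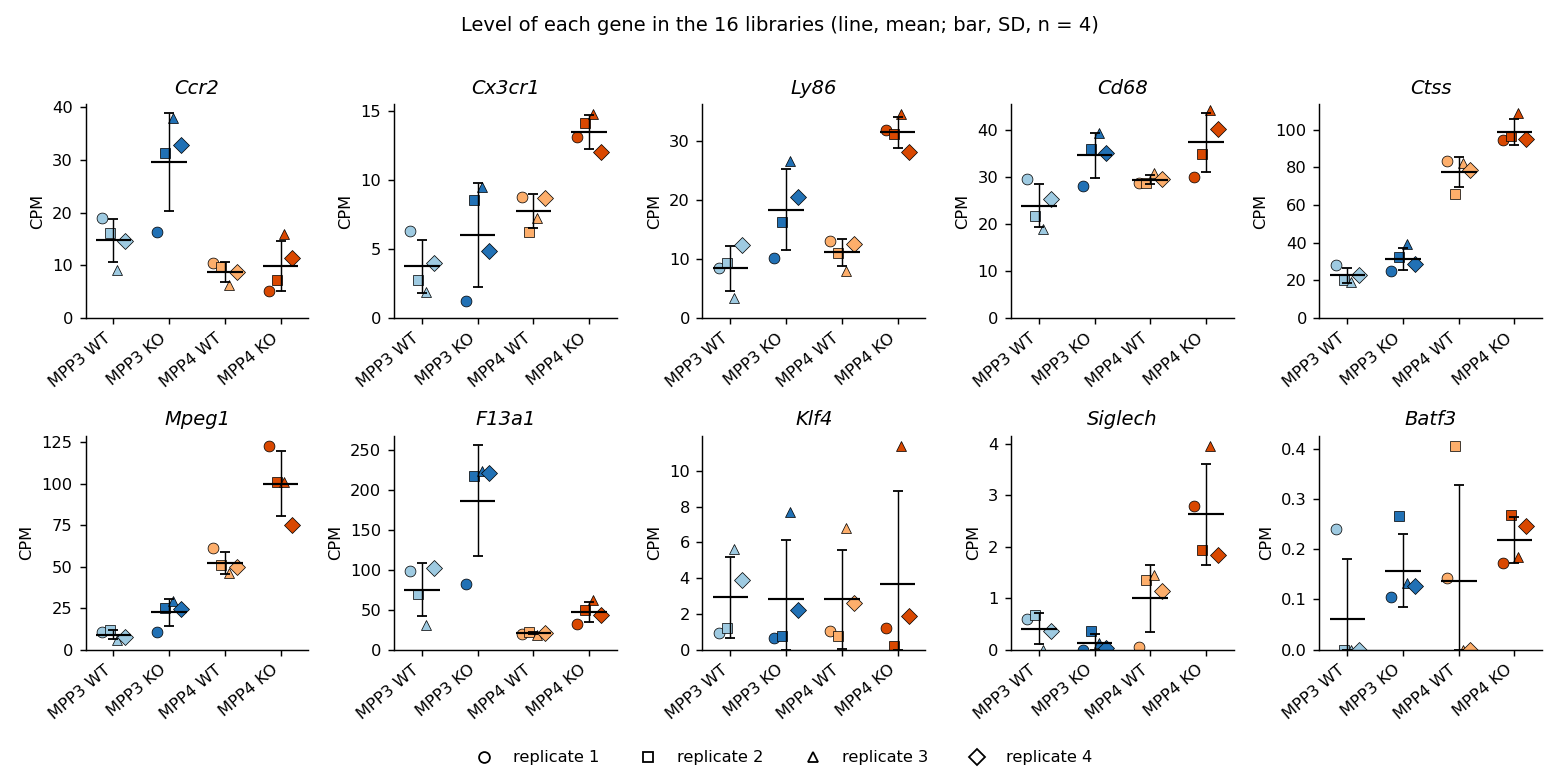
Level (CPM, y axis) of each of the 10 genes in the 16 libraries, by group on the x axis; symbols mark the replicate number, the line the mean and the bar the SD (n = 4, not drawn below 0). Ctss and Mpeg1 lie higher in every MPP4 library than in any MPP3 library of the same genotype, F13a1 lies lower, and the MPP3 KO library of replicate 1 is the lowest of its group for all 10 genes.

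Upstream sequence is shown for 4 genes whose reference windows hold no annotated exon and which stand for the patterns described below: Mpeg1 and Ctss were higher in MPP4, F13a1 was higher in MPP3, and Cd68 differed little. The sequences are the 250 bases before the RefSeq transcript start (GRCm38.p6, 5′ to 3′ on the gene's strand). Capitals mark matches, on either strand, to any of 4 short motifs of myeloid transcription factors: GAGGAAG (PU.1-type), TTNNGNAA (C/EBP-type), GGAA, any 2 bases and GAAA (composite of ETS and IRF), and GAAA, any 2 bases and GAAA (IRF-type). The windows lie at chr19:12460520-12460769 (Mpeg1, plus strand), chr3:95526536-95526785 (Ctss, plus strand), chr13:37050245-37050494 (F13a1, minus strand) and chr11:69666171-69666420 (Cd68, minus strand).
Mpeg1: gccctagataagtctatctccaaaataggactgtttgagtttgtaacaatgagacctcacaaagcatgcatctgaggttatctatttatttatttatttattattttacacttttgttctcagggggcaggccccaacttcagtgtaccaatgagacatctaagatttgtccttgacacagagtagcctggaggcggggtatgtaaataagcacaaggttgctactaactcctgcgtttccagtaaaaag
Ctss: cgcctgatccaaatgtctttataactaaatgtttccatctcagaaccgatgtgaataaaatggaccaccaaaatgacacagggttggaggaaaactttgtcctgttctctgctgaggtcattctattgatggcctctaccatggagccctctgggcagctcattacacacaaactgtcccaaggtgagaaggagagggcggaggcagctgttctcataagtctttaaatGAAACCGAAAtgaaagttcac
F13a1: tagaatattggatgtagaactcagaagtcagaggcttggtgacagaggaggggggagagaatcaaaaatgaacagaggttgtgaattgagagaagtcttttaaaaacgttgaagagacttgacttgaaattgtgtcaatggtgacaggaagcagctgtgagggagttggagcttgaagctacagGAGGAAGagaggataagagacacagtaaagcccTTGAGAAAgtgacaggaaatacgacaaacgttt
Cd68: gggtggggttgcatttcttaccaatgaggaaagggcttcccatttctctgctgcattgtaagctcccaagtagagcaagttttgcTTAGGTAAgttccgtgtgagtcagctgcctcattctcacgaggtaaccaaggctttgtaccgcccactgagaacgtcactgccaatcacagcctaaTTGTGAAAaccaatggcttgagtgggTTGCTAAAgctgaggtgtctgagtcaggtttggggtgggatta
The F13a1 window held the PU.1-type letters at positions -66 to -60 from the start and the C/EBP-type letters at -33 to -26. Cd68 had 3 matches to the C/EBP-type motif, Ctss had a match to the IRF-type motif at positions -21 to -12, and the Mpeg1 window had no match to any of the 4. No match shown overlaps another. These letters are common: of 32851 such windows, 36.8% held the C/EBP-type, 10.6% the PU.1-type, 2.98% the IRF-type and 2.3% the composite motif. Over all 10 genes, the window next to the main start of Ccr2, Siglech, F13a1 and Cd68 held the C/EBP-type motif, and those of F13a1 and Batf3 held the PU.1-type motif. A match describes the letters and is not evidence of binding.

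MPP3 and MPP4 cells were first compared within each genotype. The genes fell on both sides: in both genotypes F13a1 was higher in MPP3, while Mpeg1 and Ctss were higher in MPP4, and in KO mice Ccr2 was also higher in MPP3 and Cx3cr1 in MPP4. In WT, 3 of the 8 tested members were called, beside 15.1% of all genes tested, and in KO 5 of 8, beside 17.9% of all genes tested. Siglech was also called in KO in the fit of all genes with counts, beside 6.97% of those genes. MPP3 and MPP4 libraries of the same genotype and number deviated together from their group means, so a fit that blocks on the replicate number within genotype was read beside these counts. With this block, 6 of the 8 were called in WT, the added genes being Ccr2, Cx3cr1 and Cd68, beside 24.8% of all genes tested. In KO it called 6, the added gene being Ly86, beside 28.3%. DESeq2 called 5 in WT, beside 16.6% of all genes tested, and 6 in KO, beside 19.7%.

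**Figure D2:**
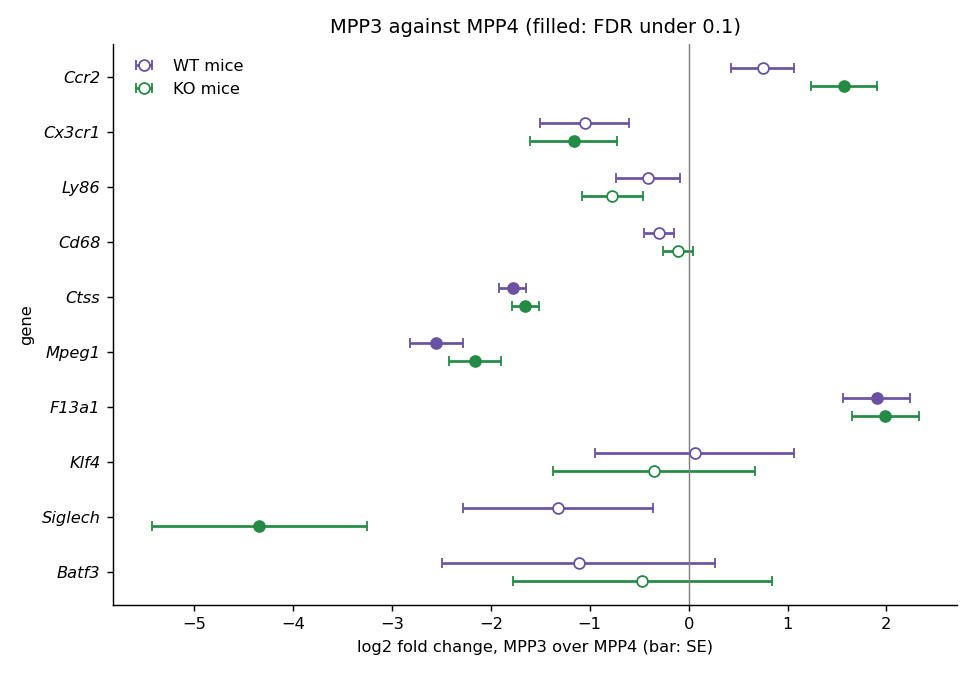
Log2 fold change of MPP3 over MPP4 (x axis) for each gene (y axis) in WT and KO mice, with its standard error (bar); filled points passed FDR under 0.1 in the fit without a block. F13a1 (1.90 and 1.99) lies right of 0 in both genotypes, and Ctss (-1.78 and -1.65) and Mpeg1 (-2.55 and -2.16) lie left of it.

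The comparison of KO with WT libraries gave no call among the members in either population with edgeR, where 0.0676% of all genes tested were called in MPP3 and 0.0169% in MPP4. Fold changes of KO over WT were nonetheless above 0 for 7 of the 8 tested members in MPP3, with a median log2 fold change of 0.85, and for 8 of 8 in MPP4, with a median of 0.58. Over all genes tested, 48.8% and 47.3% lay above 0, with a median of -0.01 in each population. The members were chosen with earlier results of these data known, so these counts describe the list and do not test it. At an unadjusted p under 0.05 stood 6 members in MPP3 and 5 in MPP4, where 10.5% and 12.8% of all genes did so. DESeq2, with the same genes and threshold, called 6 members higher in MPP3 KO (Mpeg1, Ly86, F13a1, Cd68, Ctss and Ccr2) and 3 higher in MPP4 KO (Ly86, Mpeg1 and F13a1), where 0.862% and 1.29% of all genes tested were called higher. In an edgeR fit of the 8 MPP4 libraries alone these 3 genes were called too, beside 0.182% of the genes it tested. A fit of the 8 MPP3 libraries alone called none of the members, beside 0.00871% of the genes it tested.

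Leaving out 1 of 2 libraries changed these counts. MPP3 KO replicate 1 had the lowest level of its group for all 10 members, and MPP3 WT replicate 3 had the lowest level, alone or tied at 0, for 9 of 10. Without MPP3 KO replicate 1, edgeR called 3 members higher in MPP3 KO, which were Mpeg1 (log2 fold change 1.56, FDR 0.00598), F13a1 (1.55, FDR 0.037) and Ly86 (1.33, FDR 0.0944), beside 0.609% of all genes tested. Without the KO replicate 1 libraries of both populations, a setting chosen after seeing the data, 4 members were called in MPP3, beside 0.693% of all genes tested. Without MPP3 WT replicate 3, Mpeg1 was called in MPP3 (1.17, FDR 0.0844), beside 1.16% of all genes tested, and Ly86 in MPP4 (1.50, FDR 0.0563), beside 0.0338%. In MPP4 the groups separated more cleanly. Every KO library lay above every WT library for 6 of the 10 genes, Mpeg1, Ly86, Ctss, Cx3cr1, F13a1 and Siglech. Of all genes that passed the count filter, 2.83% had KO wholly above WT. Siglech and Batf3 did not pass that filter, and Siglech had only 2 counts in MPP4 WT replicate 1. In MPP3 no member separated in this way, where 2.17% of all genes tested did.

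Of the 5 tested progenitor markers, Kit, Ly6a, Cd48 and Flt3 of the sorting gate and Cd34, edgeR called 1 between genotypes. DESeq2 called 1 higher in MPP3 KO and 1 higher and 1 lower in MPP4 KO. Over all genes tested DESeq2 called 1.82% in MPP3 and 2.58% in MPP4, counted in either direction. Kit, the receptor of stem cell factor used in the gate, was at 571, 542, 578 and 498 CPM in MPP4 WT and at 381, 398, 423 and 431 CPM in MPP4 KO libraries. Its log2 fold change of -0.42 (FDR 0.056) made it 1 of the 2 genes edgeR called in MPP4, and in MPP3 it was -0.22 (FDR 0.248). All 5 tested markers had an unadjusted p under 0.05 in MPP4, beside 12.8% of all genes tested. The others were Ly6a (0.44, FDR 0.193), Cd48 (0.30, FDR 0.226), Flt3 (-0.28, FDR 0.229) and Cd34 (-0.11, FDR 0.319), which is not part of the gate. In MPP3 2 of the 5 did, Ly6a (0.46, FDR 0.195) and Kit, beside 10.5%. For Itgam of the depleted lineages the log2 fold change was 0.53 (FDR 0.462) in MPP3 and 0.55 (FDR 0.352) in MPP4. It was above 0 in both, and had an unadjusted p under 0.05 in both. The part of a shift in the sorted cells in the values of the 10 genes was not tested.

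**Figure D3:**
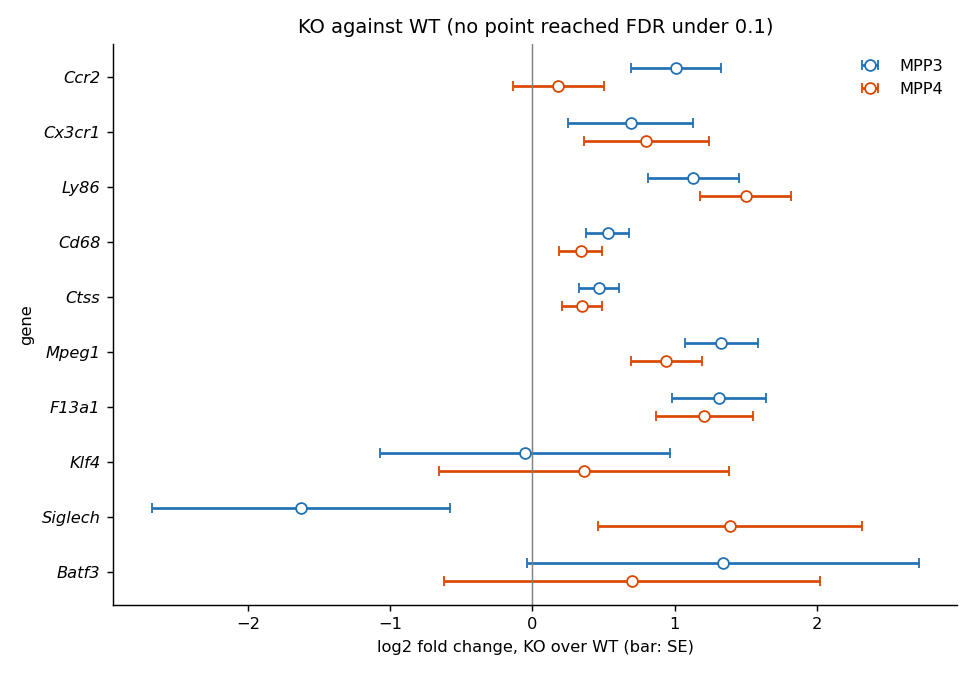
Log2 fold change of KO over WT (x axis) for each gene (y axis) in MPP3 and MPP4, with its standard error (bar); none passed FDR under 0.1 with edgeR. Ly86, Mpeg1 and F13a1 lie between 0.94 and 1.50 in both populations, and Ccr2 lies at 1.01 in MPP3 and at 0.18 in MPP4.

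Of the chemokine receptors, Ccr2, which lets classical monocytes leave the bone marrow toward CCL2, was the higher in MPP3. Ccr2 (ENSMUSG00000049103, chr9:124101950-124113557) was at 18.9, 16.2, 9.08 and 14.7 CPM in MPP3 WT and at 10.4, 9.75, 6.21 and 8.66 CPM in MPP4 WT libraries 1 to 4. In KO mice it was at 16.3, 31.3, 37.9 and 32.8 CPM in MPP3 and at 5.19, 7.26, 15.9 and 11.4 CPM in MPP4. The MPP3 level exceeded the MPP4 level in every numbered pair of both genotypes, although the WT groups overlapped through MPP3 replicate 3. In KO the log2 fold change of MPP3 over MPP4 was 1.57 ± 0.33 (SE, FDR 0.0033). In WT it was 0.75 ± 0.32 (FDR 0.176), and with the block 0.73 ± 0.14 (FDR 0.00273). KO over WT was 1.01 ± 0.32 (FDR 0.278) in MPP3, where 3 of 4 KO libraries lay above all WT libraries, and 0.18 ± 0.32 (FDR 0.852) in MPP4, where the groups overlapped. The difference of these KO effects was 0.83 ± 0.46 (unadjusted p = 0.0891, FDR 1), and 0.90 ± 0.20 with the block (unadjusted p = 0.000674, FDR 0.683), so it was not called.

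Cx3cr1, the fractalkine receptor of patrolling monocytes and of macrophage and DC precursors, had the opposite order. Cx3cr1 (ENSMUSG00000052336, chr9:119901616-120069879) was at 6.32, 2.76, 1.88 and 4.02 CPM in MPP3 WT and at 8.78, 6.26, 7.22 and 8.7 CPM in MPP4 WT libraries. In KO mice the values were 1.26, 8.56, 9.5 and 4.83 CPM in MPP3 and 13.1, 14.1, 14.8 and 12 CPM in MPP4. All 4 MPP4 KO libraries lay above all MPP3 KO and all MPP4 WT libraries. MPP3 over MPP4 was -1.05 ± 0.45 in WT (FDR 0.165, and 0.0428 with the block) and -1.16 ± 0.44 in KO (FDR 0.0992, and 0.015 with the block). The call in KO lay close to the threshold: it was lost in a fit of the 8 KO libraries alone (FDR 0.131) and without MPP3 KO replicate 1 (FDR 0.133), and held in 4 of 16 fits that left out 1 library. KO over WT was 0.69 ± 0.44 (FDR 0.653) in MPP3 and 0.80 ± 0.44 (FDR 0.459) in MPP4. The gene spans other genes on both strands, and the use of strand in counting is not stated, but its exons overlapped only those of an antisense gene that has no row in the count tables.

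Ly86 encodes MD-1, the partner that RP105 (Cd180) needs at the surface of B cells and myeloid cells to respond to bacterial lipids. Ly86 (ENSMUSG00000021423, chr13:37345208-37419036) was at 8.55, 9.3, 3.35 and 12.4 CPM in MPP3 WT and at 10.1, 16.3, 26.5 and 20.5 CPM in MPP3 KO libraries. In MPP4 it was at 13, 11, 7.92 and 12.6 CPM in WT and at 31.8, 31.2, 34.6 and 28.1 CPM in KO libraries. The lowest MPP4 KO library was thus above the highest MPP4 WT library, whereas MPP3 KO replicate 1 lay within the MPP3 WT range. The log2 fold change of KO over WT was 1.50 ± 0.32 in MPP4 (FDR 0.11) and 1.13 ± 0.32 in MPP3 (FDR 0.199). With sex as a term, Ly86 was called in MPP4 (FDR 0.0553). MPP3 over MPP4 was -0.41 ± 0.32 in WT (FDR 0.525) and -0.77 ± 0.31 in KO (FDR 0.125), and the latter was called with the block (-0.85 ± 0.22, FDR 0.0122). The gene of its partner, Cd180, was lower in MPP3 than in MPP4 in WT (-0.71, FDR 0.00259) and KO (-1.04, FDR 8.02e-05), and was not called between genotypes (-0.33 in MPP3, FDR 0.429, and -0.01 in MPP4, FDR 0.988).

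Siglech, a sialic acid-binding receptor that marks plasmacytoid DCs and their precursors, was close to the limit of detection in MPP3. Siglech (ENSMUSG00000051504, chr7:55768178-55778925) was at 0.602, 0.67, 0 and 0.354 CPM in MPP3 WT and at 0, 0.365, 0.133 and 0.0251 CPM in MPP3 KO libraries. In MPP4 it was at 0.0472, 1.35, 1.46 and 1.13 CPM in WT and at 2.8, 1.93, 3.96 and 1.84 CPM in KO libraries. All MPP4 KO libraries were above all others. In the fit of all genes with counts, MPP3 over MPP4 was -4.34 ± 1.09 in KO (FDR 0.0231) and -1.32 ± 0.96 in WT (FDR 0.597). KO over WT was 1.39 ± 0.93 in MPP4 (FDR 0.687) and -1.63 ± 1.05 in MPP3 (FDR 0.726), and the difference of these effects was -3.02 ± 1.41 (unadjusted p = 0.0455, FDR 1). These sizes rest on few counts in MPP3: without MPP3 KO replicate 2, the highest of its group, they were -5.54 for MPP3 over MPP4 in KO, -2.83 for KO over WT in MPP3 and -4.23 for the difference of effects, and the call in KO held in 16 of 16 fits that left out 1 library.

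Among genes of the lysosome and of secretion, Mpeg1 and Ctss gave the clearest difference between populations. Mpeg1 encodes perforin-2, a pore-forming protein of phagocytes that acts on engulfed bacteria. Mpeg1 (ENSMUSG00000046805, chr19:12460779-12465283) was at 10.6, 11.8, 5.92 and 7.59 CPM in MPP3 WT and at 61.3, 50.9, 46.4 and 50 CPM in MPP4 WT libraries. In KO mice it was at 10.8, 25.2, 29.4 and 24.3 CPM in MPP3 and at 123, 101, 101 and 75.2 CPM in MPP4. All MPP4 libraries lay above all MPP3 libraries, and all MPP4 KO libraries above all MPP4 WT libraries. MPP3 over MPP4 was -2.55 ± 0.27 in WT (FDR 6.78e-06), a 5.86-fold difference, and -2.16 ± 0.26 in KO (FDR 2.35e-05), a 4.47-fold difference. Between genotypes the values were 1.33 ± 0.26 in MPP3 (FDR 0.119) and 0.94 ± 0.25 in MPP4 (FDR 0.179). With sex as a term, Mpeg1 was called in MPP3 (FDR 0.0609) and in MPP4 (FDR 0.0822).

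Ctss encodes cathepsin S, the protease that trims the invariant chain of MHC class II molecules in antigen-presenting cells. Ctss (ENSMUSG00000038642, chr3:95526786-95556403) was at 28.3, 20.2, 19.2 and 23 CPM in MPP3 WT and at 83.6, 66.1, 82.2 and 78.7 CPM in MPP4 WT libraries. In KO mice it was at 25.1, 32.3, 39.2 and 28.8 CPM in MPP3 and at 94.6, 96.5, 109 and 95.2 CPM in MPP4. MPP3 over MPP4 was -1.78 ± 0.14 in WT (FDR 2.9e-07) and -1.65 ± 0.14 in KO (FDR 5.29e-07), the smallest FDR of the members in each genotype. The differences between genotypes were smaller, at 0.47 ± 0.14 in MPP3 (FDR 0.235) and 0.35 ± 0.14 in MPP4 (FDR 0.293), although all MPP4 KO libraries lay above all MPP4 WT libraries.

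Cd68, a heavily glycosylated protein of endosomes and lysosomes in phagocytes, was nearly level between populations. Cd68 (ENSMUSG00000018774, chr11:69664213-69666153) was at 29.6, 21.8, 18.9 and 25.4 CPM in MPP3 WT and at 28.1, 35.9, 39.4 and 35.1 CPM in MPP3 KO libraries. In MPP4 it was at 28.7, 28.7, 30.8 and 29.6 CPM in WT and at 30, 35, 44.2 and 40.3 CPM in KO libraries. The groups overlapped in every comparison. MPP3 over MPP4 was -0.30 ± 0.15 in WT (FDR 0.245, and 0.0743 with the block) and -0.11 ± 0.15 in KO (FDR 0.722). KO over WT was 0.53 ± 0.15 in MPP3 (FDR 0.186) and 0.34 ± 0.15 in MPP4 (FDR 0.326).

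F13a1 encodes the A subunit of coagulation factor XIII, a transglutaminase that monocytes and platelets carry. F13a1 (ENSMUSG00000039109, chr13:36867178-37050244) was at 98.7, 70.2, 30.3 and 102 CPM in MPP3 WT and at 19.6, 21.4, 18.6 and 21.3 CPM in MPP4 WT libraries. In KO mice it was at 82.1, 218, 224 and 222 CPM in MPP3 and at 31.9, 49.7, 62.5 and 43.4 CPM in MPP4. Within each genotype all MPP3 libraries lay above all MPP4 libraries, and all MPP4 KO above all MPP4 WT libraries, but MPP3 KO replicate 1 lay within the MPP3 WT range. MPP3 over MPP4 was 1.90 ± 0.34 in WT (FDR 0.00117), a 3.73-fold difference, and 1.99 ± 0.34 in KO (FDR 0.000627), a 3.97-fold difference. For KO over WT the values were 1.31 ± 0.33 (FDR 0.164) in MPP3 and 1.21 ± 0.34 (FDR 0.187) in MPP4. The other transglutaminases that could be tested, Tgm1 and Tgm2, were also higher in MPP3 WT than in MPP4 WT (1.04 and 2.06, FDR 0.0151 and 0.0249). In KO Tgm1 was called (0.90, FDR 0.0279) and Tgm2 was at 1.19 (FDR 0.189), and neither was called between genotypes. An annotated antisense gene, which has no row in the count tables, overlaps exons of F13a1.

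The transcription factors on the list were low. Batf3, which the CD8α+ type of conventional DC needs for its development, had raw counts of 8, 0, 0 and 0 in MPP3 WT, 4, 8, 5 and 5 in MPP3 KO and 6, 12, 0 and 0 in MPP4 WT libraries, and the MPP4 KO libraries had 6, 10, 5 and 9. All 8 KO libraries thus had more than 3 counts, as did 3 of the 8 WT libraries, but the ranges overlapped. Fitted KO over WT values were 1.34 ± 1.38 in MPP3 (FDR 0.834) and 0.70 ± 1.32 in MPP4 (FDR 0.967), and a difference was not detectable at this depth. Leaving out 1 library gave 0.93 to 5.56 in MPP3, the highest without WT replicate 1, and 0.28 to 2.15 in MPP4, the highest without WT replicate 2.

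Klf4, a Kruppel-like factor needed for monocytes to form, varied more between replicates than between groups. Klf4 (ENSMUSG00000003032, chr4:55527143-55532466) was at 0.933, 1.18, 5.66 and 3.92 CPM in MPP3 WT and at 0.654, 0.763, 7.69 and 2.21 CPM in MPP3 KO libraries. In MPP4 it was at 1.04, 0.779, 6.79 and 2.61 CPM in WT and at 1.18, 0.187, 11.4 and 1.89 CPM in KO libraries. Replicate 3 was the highest in all 4 groups and replicate 4 the next highest in each. No contrast was called. KO over WT was -0.05 ± 1.02 in MPP3 (FDR 0.993) and 0.36 ± 1.02 in MPP4 (FDR 0.92). In this fit the standard error of about 1 leaves room for a large difference either way. In a fit of each population that blocks on the replicate number, it was -0.36 ± 0.32 in MPP3 (FDR 0.85) and -0.23 ± 0.44 in MPP4 (FDR 0.877). Replicate 3 was also the highest in all 4 groups for Klf6, Fos, Fosb, Jun and Junb, most of them immediate early genes that respond quickly to handling and to growth signals. For Klf2 and Jund it was the highest in 3 of 4 groups, with MPP3 WT replicate 4 above it at 43.2 against 35.1 CPM for Klf2 and at 21.5 against 21.1 CPM for Jund. Fos lay between 1641 and 2078 CPM in the replicate 3 libraries and between 12.4 and 304 CPM in those of replicates 1 and 2. In the replicate 4 libraries it was at 950 and 1061 CPM in WT but at 113 and 110 CPM in KO, below KO replicate 1 (304 and 268 CPM), so that Fos did not follow the order of Klf4 there. The part of cell handling in the Klf4 values was not tested.

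**Figure D4:**
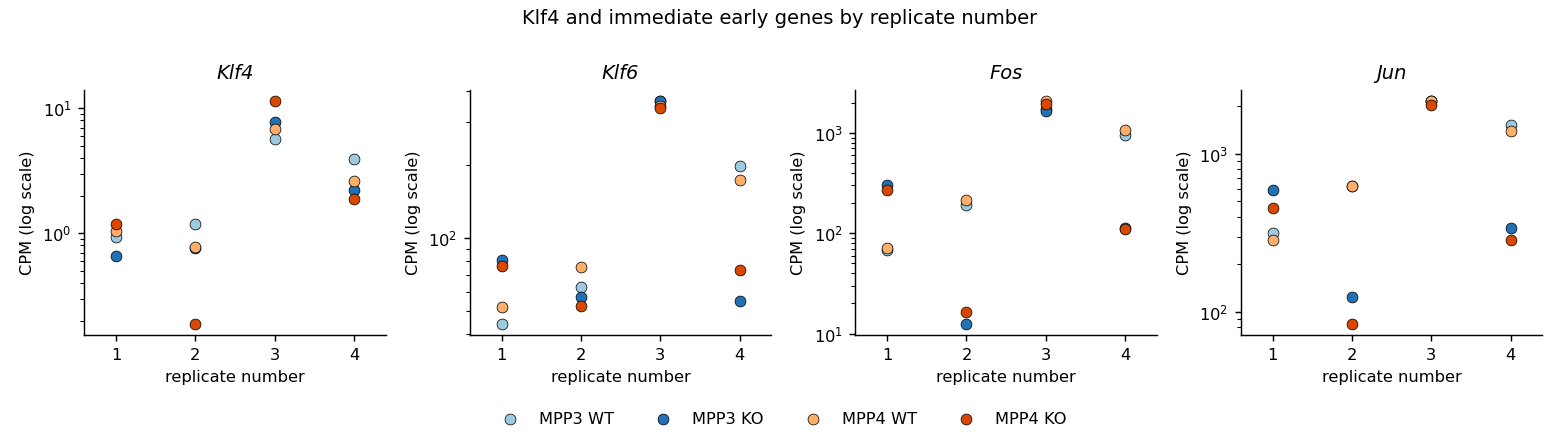
Level (CPM, log-scaled y axis) of Klf4 and of 3 immediate early genes by replicate number (x axis), with the group shown by colour. All 4 genes are highest in the replicate 3 libraries of every group, where Klf4 lies between 5.66 and 11.4 CPM.

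Other genes of the same lineages were counted in lists. Of the list of 30 monocyte genes, 22 could be tested, of which 10 were called higher and 5 lower in MPP3 WT than in MPP4 WT, and 11 higher and 2 lower in KO. Over all genes tested, 6.80% were called higher and 8.33% lower in WT, and 8.71% and 9.18% in KO. Emilin2 (2.80), Fcgr3 (3.26), which encodes an Fc receptor, and Ly6c2 (3.49), which marks classical monocytes, were higher in MPP3 WT, while Clec12a (-0.81), Hpse (-0.69) and Irf5 (-0.54) were lower. Of the 20 plasmacytoid DC genes, 16 could be tested, with 1 called higher and 10 lower in WT, and 2 higher and 10 lower in KO. The gene called higher in WT was Ly6c2, which is on both lists. The lower genes with the smallest p-values in WT were Tcf4 (-0.95), the E protein that specifies plasmacytoid DCs, Cox6a2 (-4.12) and Tlr7 (-2.96), a receptor for single-stranded RNA. Of 20 conventional DC genes, 11 could be tested, with 1 called higher and 6 lower in MPP3 WT, and 1 higher and 7 lower in KO. Irf8 (-1.50), the factor that DC and monocyte progenitors depend on, Nfil3 (-1.86) and Ccr7 (-3.41), which guides DCs to lymph nodes, were among the lower genes, and Naaa (1.12) was the higher one.

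**Figure D5:**
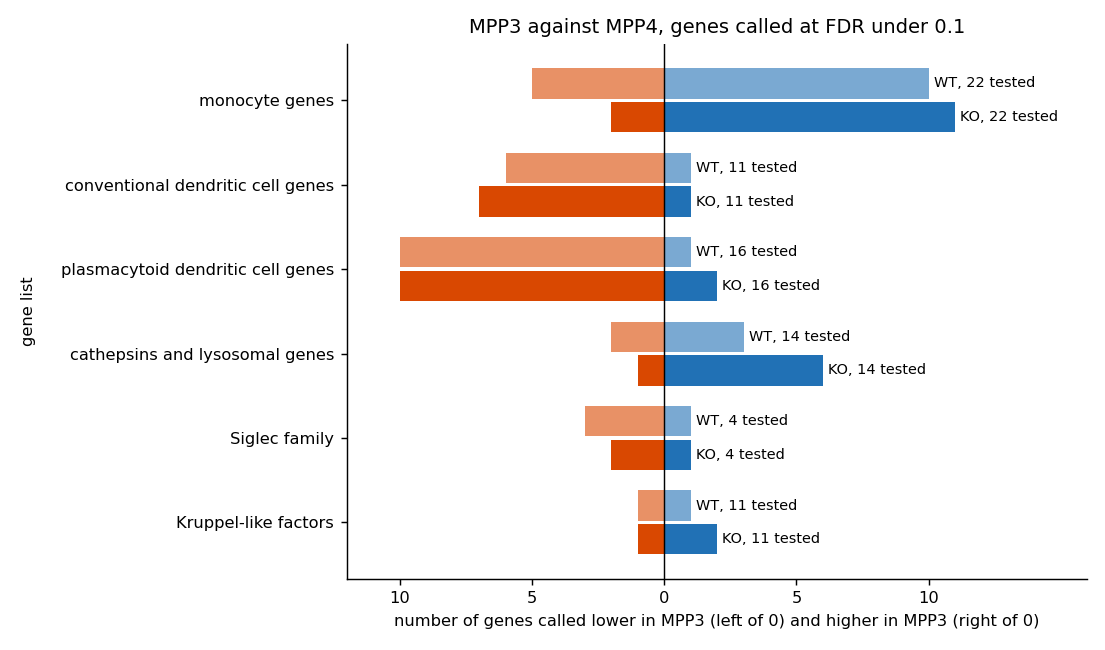
Number of genes called lower (left) and higher (right) in MPP3 than in MPP4 (x axis) for 6 gene lists (y axis), with pale bars for WT and full bars for KO and the number tested beside each. In WT 10 monocyte genes were called higher and 5 lower, and 1 plasmacytoid DC gene was called higher and 10 lower.

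Smaller families around each member are given beside the 15.1% of all genes tested that were called in this contrast in WT. Among 16 other cathepsins and lysosomal genes, 14 could be tested, and 3 were called higher (Lamp2, Ctsl and Ctsc) and 2 lower (Psap and Npc2) in MPP3 WT, with log2 fold changes between -0.41 and 0.40, beside -1.78 for Ctss. Of the Siglec genes tested, Siglecf was higher in MPP3 WT (1.80) and Cd33 (-3.36), Siglece (-1.13) and Siglecg (-0.61) were lower. Of 11 Kruppel-like factors tested, Klf9 (1.10) was called higher and Klf3 (-1.15) lower in MPP3 WT. Among chemokine receptors and ligands, 4 of 11 could be tested, and Cxcr2 (1.96) was higher and Ccr9 and Ccr7 were lower in MPP3 WT. Of 6 tested genes for partners of Ly86 and pattern receptors, edgeR and DESeq2 called 1 in WT, which with edgeR was Cd180. Irf8 was the single gene of 8 tested BATF and AP-1 partners that edgeR called in WT, where DESeq2 called 2. The shares called among the Kruppel-like factors (2 of 11), the partners of Ly86 (1 of 6) and the BATF partners (1 of 8) were near that of all genes and are no result about these families.

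Between genotypes, edgeR called no gene of any of these lists. The lists too were chosen with earlier results of these data known, so the counts below describe them and do not test them. In the monocyte list, 19 of 22 tested genes had fold changes above 0 in MPP3 KO, with a median log2 fold change of 0.63 against -0.01 over all genes tested, and 17 of 22 in MPP4 KO, with a median of 0.31. Of the 22, 12 in MPP3 and 8 in MPP4, where Sirpa had a value below 0 (-0.33), had an unadjusted p under 0.05, beside 10.5% and 12.8% of all genes tested. DESeq2 called 8 and 5, all higher in KO, beside 0.862% and 1.29%. The smallest p-values belonged to Tyrobp (0.68 ± 0.14, FDR 0.134), an adaptor of activating receptors, and Ms4a6c (0.77 ± 0.17, FDR 0.147) in MPP3, and to Ms4a6c (0.93 ± 0.17, FDR 0.11) and Csf1r (0.98 ± 0.20, FDR 0.11), the receptor of the monocyte growth factor M-CSF, in MPP4. Of the plasmacytoid and the conventional DC list DESeq2 called 1 gene each in MPP3 and in MPP4. Over all genes tested, 48.8% lay above 0 in MPP3 and 47.3% in MPP4. Plasmacytoid DC genes had medians of 0.07 in MPP3 and -0.05 in MPP4, with 8 and 7 of 16 above 0. An unadjusted p under 0.05 was found for 4 and 5 of them. Conventional DC genes had medians of 0.17 and 0.18, with 7 and 9 of 11 above 0 and an unadjusted p under 0.05 for 5 and 3. In the latter list Irf8 had the smallest p in both populations, at 0.88 ± 0.21 (FDR 0.164) in MPP3 and 0.77 ± 0.21 (FDR 0.182) in MPP4.

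Markers of macrophages, which also express several of these genes, had values in the same direction. Of 14 tissue macrophage markers, 9 could be tested, and log2 fold changes were above 0 for 9 in MPP3 KO and 7 in MPP4 KO. None of them was called by edgeR or DESeq2, and 2 in each population had an unadjusted p under 0.05. Over all genes tested, 48.8% in MPP3 and 47.3% in MPP4 lay above 0, and 10.5% and 12.8% had an unadjusted p under 0.05. Their summed level ranged from 59.4 to 84.8 CPM in MPP3 WT and from 79.8 to 140 CPM in MPP3 KO, and from 60.7 to 76.4 CPM in MPP4 WT and from 71.6 to 93.8 CPM in MPP4 KO libraries, and Mertk had no count in any MPP3 WT library. The summed mature neutrophil markers ranged from 23.5 to 55.3 CPM in MPP3 WT and from 22.1 to 99.1 CPM in MPP3 KO, and Ly6g had no count in MPP3. In MPP4 they ranged from 4.8 to 11.9 CPM in WT and from 8.65 to 21.1 CPM in KO. Of the 5 that could be tested, 5 had a fold change above 0 in MPP3 KO and 4 in MPP4 KO, beside 48.8% and 47.3% of all genes tested. EdgeR called none of them and DESeq2 called 1 higher, in MPP3, beside 0.862% of all genes tested. Mast cell and basophil markers had fold changes of KO over WT above 0 for 6 of 7 tested in MPP3, with a median log2 fold change of 0.73, and for 4 of 7 in MPP4, with a median of 0.29. Again edgeR called none and DESeq2 called 1 higher, in MPP3, beside the same 0.862% of all genes tested. Their summed level ranged from 349 to 484 CPM in MPP3 WT and from 353 to 583 CPM in MPP3 KO, and from 72.9 to 107 CPM in MPP4 WT and from 63 to 96.1 CPM in MPP4 KO libraries. Within MPP3 KO, 8 of the 10 members peaked in replicate 3 and all 10 were lowest in replicate 1. The mast cell and basophil sum had the same lowest and highest library, at 353, 495, 583 and 530 CPM in replicates 1 to 4. In that sum Cpa3 gave 286 and Gata2 175 CPM in replicate 3, with log2 fold changes of KO over WT of 0.08 and -0.14 in MPP3. The macrophage and neutrophil sums were highest in replicate 2, at 140 and 99.1 CPM. The neutrophil sum was also lowest in replicate 1, at 22.1 CPM, and the macrophage sum was lowest in replicate 4, at 79.8 CPM. The part of such cells in the differences between genotypes was not tested. Between populations, 6 of 7 tested markers of mast cells and basophils and 6 of 7 of megakaryocytes were called higher in MPP3 WT than in MPP4 WT, beside 6.80% of all genes tested, and their part in the higher F13a1 and Ccr2 of MPP3 was not tested either.

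Sex and age differed between libraries of a genotype. Within females, 9 of the 10 members had a higher mean in KO than in WT in each population, the exceptions being Siglech in MPP3 and Batf3 in MPP4. Within males, 9 were higher in MPP3 KO, with Klf4 the exception, and 8 in MPP4 KO, with Ccr2 and Klf4 the exceptions. These means rest on 2 libraries per sex and genotype and were not tested. Females were replicates 1 and 2 in WT but 3 and 4 in KO, and males the reverse, so within a sex the genotype and the replicate number cannot be told apart. Klf4, whose level followed the number, is counted as higher in KO among females and is the exception among males. With sex as a term, 2 members were called in each population, Mpeg1 and Ccr2 in MPP3, beside 0.490% of all genes tested, and Ly86 and Mpeg1 in MPP4, beside 1.55%. With age as a term none of the members was called, beside 0.00845% of all genes tested in each population. KO mice were mostly younger than WT mice, so this fit cannot fully tell age and genotype apart. In it KO over WT was 1.31 ± 0.31 for Mpeg1, 1.31 ± 0.39 for F13a1 and 1.13 ± 0.36 for Ly86 in MPP3. In MPP4 the same genes were at 0.92 ± 0.31, 1.22 ± 0.40 and 1.50 ± 0.38. The KO effect did not differ between MPP3 and MPP4 past the threshold for any member, where edgeR called 0.00% of all genes tested. In the fit without a block, none of the 8 tested genes had an unadjusted edgeR p under 0.05, beside 2.28% of all genes tested, and DESeq2 called none, beside 0.0676%. For Ccr2 the unadjusted edgeR p was 0.000674 with the block (FDR 0.683) and 0.0129 with sex as a term (FDR 1).

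Across the 16 libraries, the genes whose levels most resembled each of the 8 members that passed the count filter were found by Pearson's r of log2 CPM, as a description, since the libraries fall into 4 groups that alone give such correlations. Mpeg1 was most like Aldh1b1 (r = 0.963), Tmem229b (0.962) and Ctss (0.956). Ctss was most like Ncf1 (0.977), a subunit of the phagocyte oxidase, Rasa4 (0.976) and Lbh (0.966). F13a1 was most like Ctsg (0.950) and Prtn3 (0.946), proteases of neutrophil and monocyte granules, and Rpn1 (0.944). The genes most like Ccr2 were Idh1 (0.949), Itm2c (0.933) and Fcer1g (0.926), and those most like Cx3cr1 were Pld4 (0.926), Bphl (0.912) and Clec12a (0.908). Ly86 was most like Erp29 (0.940), Gbp3 (0.907) and Clta (0.903), Cd68 was most like Tmed3 (0.933), Gm14165 (0.899) and Rps18-ps1 (0.890), and Klf4 was most like Gm26532 (0.912), Klf6 (0.906) and Rgs2 (0.898).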

How the data were processed

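RNA of sorted MPP3 and MPP4 cells was sequenced as paired-end polyA libraries. Alignment by the authors used STAR 2.7.3a and the mm10 build. The authors deposited raw counts per gene in a table for each population, which were the input of all tests. The authors also deposited a table of normalised signal (counts divided by DESeq2 1.28.1 size factors), used only as a check. Annotation release and strand setting for the RNA counts are not given in the sources used here. Symbols came from GENCODE M21 (47310 of 47937 identifiers matched), and upstream sequences from RefSeq (GRCm38.p6).

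A gene was tested if its mean count exceeded 100 in at least 1 of the 4 groups, with edgeR 4.0.16 (R 4.3.3; TMM, quasi-likelihood F-test, all 16 libraries, 1 mean per group) and called at FDR under 0.1; the standard error is the log2 fold change divided by the square root of F. DESeq2 1.42.0 was an alternative. The code was tested on simulated data. The labels do not say that libraries of the same number came from the same mouse, but the deviations of MPP3 and MPP4 libraries of the same genotype and number correlated at 0.269 to 0.548 in all 8 pairs, each best with its own number, so the number was used as a block beside the population contrasts. Intervals set by 3 counts cover counting error only. Where replicates are not known to come from separate mice, p-values measure the spread between these samples. All 10 genes were named, with up to 3 called genes a direction of each list by smallest p, or the 2 smallest p-values where none was called. The members and the lists were chosen with earlier results of these data known.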

Additional observations from a re-analysis of the deposited data

Results flagged for a closer look

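In 40 combinations of gene and group, the highest or lowest of the 4 libraries was compared with the rest, and in 4 the gap to the nearest library, as a share of the group's range, exceeded Dixon's 95% critical value for 4 samples, where chance flags about 1 in 20 groups. F13a1 was at 82.1 CPM in MPP3 KO replicate 1, while the other 3 libraries lay between 218 and 224 CPM. Klf4 was at 11.4 CPM in MPP4 KO replicate 3, against 0.187 to 1.89 CPM in the others, and Ctss was at 109 CPM in the same library, against 94.6 to 96.5 CPM. Batf3 was at 0.241 CPM in MPP3 WT replicate 1 and had no count in the other 3 libraries.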

How the results depend on the processing

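The calls of F13a1, Ctss and Mpeg1 between populations held in both genotypes under every alternative run, and the call of Ccr2 in KO did as well. Members called in WT between populations numbered 3, and 5 with DESeq2, with the 8 WT libraries alone or without both KO replicate 1 libraries, 6 with the replicate block, and 3 to 5 when 1 library was left out (5 without MPP3 WT replicate 1). In KO the count was 5, and 4 to 6 when 1 library was left out. The call of Cx3cr1 in KO held in 5 of 11 alternatives and in 4 of 16 fits without 1 library. Between genotypes, the 0 calls in MPP3 became 6 with DESeq2, 2 with sex as a term, 4 without both KO replicate 1 libraries (chosen after seeing the data) and 0 to 3 when 1 library was left out. The 0 calls in MPP4 became 3 with DESeq2 or with the 8 MPP4 libraries alone, 2 with sex as a term and 0 to 1 when 1 library was left out. Over all genes, edgeR called 8 and 2 genes in MPP3 and MPP4, and DESeq2 215 and 305. The labels link WT and KO libraries only by number, and over all genes tested their deviations correlated at -0.464 to 0.127. Klf4, Klf6, Fos, Fosb, Jun and Junb were nonetheless highest in replicate 3 of every group. Blocking on the number left 0 members called in both populations. The interaction had 0 members called under every alternative.

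Signs changed only for values that were not called. For KO over WT, Klf4 in MPP3 was 1.33 with age as a term, 0.28 without both KO replicate 1 libraries and -1.27 to 0.48 with 1 library left out; in MPP4 it was -0.23 with the replicate block and -1.37 to 1.29 with 1 library left out. Ccr2 in MPP4 was -0.27 without replicate 3 in all groups (chosen after seeing the data) and -0.14 to 0.39 with 1 library left out. Between populations, Klf4 in KO was 0.03 with the replicate block and -1.57 to 1.38 with 1 library left out, Klf4 in WT was -0.47 to 0.98 and Batf3 in WT -5.32 to 0.32. For the interaction, leaving out 1 library gave -0.79 to 4.85 for Batf3, -0.00 to 0.25 for Ctss, -0.42 to 0.26 for Cx3cr1, -0.17 to 0.34 for F13a1 and -1.63 to 1.32 for Klf4. Without replicate 3 the interaction was -0.06 for Ctss and -0.06 for F13a1, and for Cx3cr1 it was 0.21 without both KO and 0.19 without both WT replicate 1 libraries. The cause of these changes was not tested.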
